A study of Mus musculus with 6 samples.

Results

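The Frizzled genes Fzd1 to Fzd10 encode the seven-pass membrane receptors that bind Wnt proteins, and they are described here in limb cells sorted for nuclear GFP driven by Pax7. All 10 genes were found by their symbol in the platform annotation, as 26 of 34909 probe sets with 1 gene symbol, and a gene's values are those of its brightest probe set, judged by the mean of the 6 arrays. They are 10 of 18182 genes tested. The cells came from Tg:Pax7-nGFP mouse embryos on a C57BL/6:DBA2 background at E12.5 (limb buds) and at E17.5, and each age had 3 arrays called biological replicates A, B and C. The transgene is shared by both ages, and GFP protein can outlast Pax7 transcription, so a sorted cell may have left the Pax7-expressing state. The labels do not say whether limbs of several embryos were pooled.

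Wnt ligands bind the extracellular cysteine-rich domain of a Frizzled. With the co-receptors Lrp5 or Lrp6 the receptor recruits Dishevelled and stabilises beta-catenin, and with other partners, such as Ror2, Vangl2 or Celsr proteins, it acts on cell polarity and movement without beta-catenin. In adult muscle Fzd7 is known as the receptor through which Wnt7a acts on satellite cells, the muscle stem cells. By sequence the family falls into Fzd1, Fzd2 and Fzd7, then Fzd3 and Fzd6, then Fzd5 and Fzd8, and last Fzd4, Fzd9 and Fzd10.

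Fzd2 and Fzd3 were lower at E17.5 by 3.01-fold and 2.75-fold, and Fzd1 was lower by 1.78-fold with a weak call. Fzd5 was higher by 3.29-fold, a call that was lost when some single arrays were left out. Fzd4, Fzd7 and Fzd8 had signal but were not called on their brightest probe set, and a second Fzd8 probe set was lower by 3.39-fold. Fzd6 was low, with an E17.5 mean of 3.85, and was not called either. Fzd9 and Fzd10 lay in the dim range at both ages. Called means an adjusted p under 0.05 in limma with Benjamini-Hochberg adjustment over all genes. By that rule 1 Frizzled gene rose, 3 fell and 6 were not called, where 16.9% of all genes were called, 8.21% higher and 8.73% lower. The ages did not overlap in 5 of the 10 genes, 4 lower and 1 higher at E17.5, where 31.4% of all genes did not overlap (17.2% lower and 14.2% higher). Called or not, 7 differences were negative and 3 positive, with a median of -0.53 against 0.0033 over all genes. The signs include those of Fzd9 (0.0033) and Fzd10 (-0.04), from which no change could be read. The 2 medians do not compare like genes, since 42.8% of all genes had a mean under 4, against 2 of the 10 members. Values are log2 signals after GCRMA, a difference is the E17.5 mean less the E12.5 mean on that scale, and means are ± SD with n = 3 arrays.

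**Figure D1:**
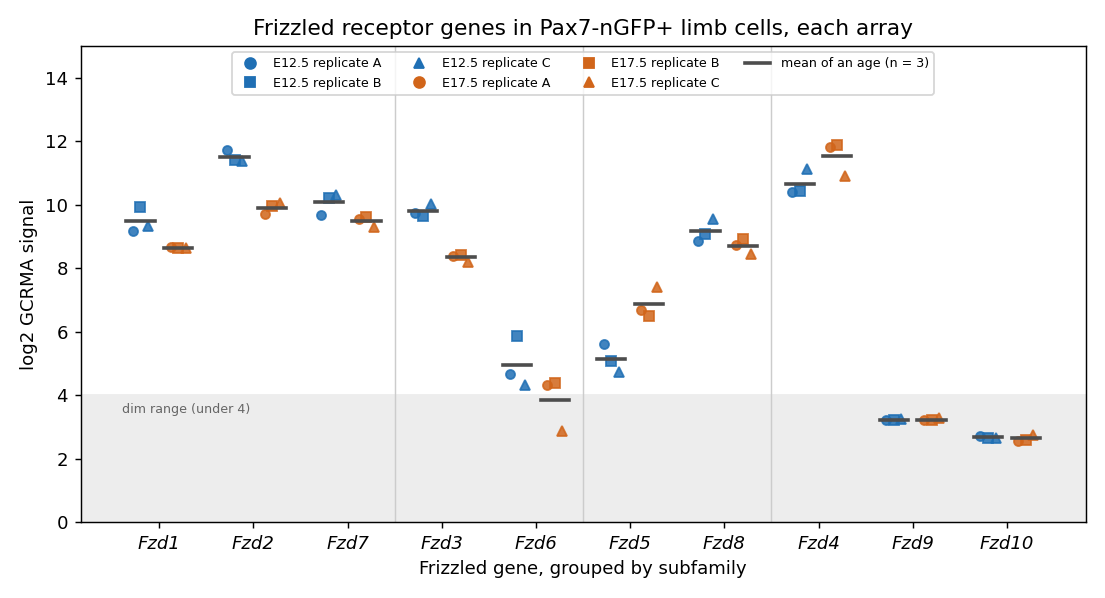
Log2 GCRMA signal of each Frizzled gene (brightest probe set) on each of the 6 arrays, grouped by subfamily, with colour for age, symbol for replicate and a bar for the mean of 3 arrays. Fzd2 and Fzd3 sit lower at E17.5 with a clear gap between ages, Fzd5 sits higher, and Fzd9 and Fzd10 stay under 4 at both ages.

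Several facts about the arrays bear on these values. E17.5 replicates A and B were much closer to each other than other arrays of 1 age. Among genes whose mean was 6 or more, their difference had an SD of 0.152, and the other pairs of arrays of 1 age had 0.412 to 0.551. Over the 10 Frizzled genes A and B differed by at most 0.24. If they are not independent samples the p-values are too small, so calls are also given with A and B averaged into 1 sample, where 10.2% of all genes were called (5.62% higher, 4.54% lower). P-values set a difference against the spread between these arrays, which limma moderates with that of all genes. The number of arrays limits the precision. Values under 4 are called dim because GCRMA compresses probe sets without specific signal into that range, which held 42.8% of genes by their mean. A gene's level is compared only within a probe set, since the brightness of different probe sets cannot be set against each other. The marker sums below add different probe sets, so each is weighted to the brightest ones and is no measure of a cell type's share.

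The labelled cell type was checked with markers. Pax7 was at 11.46 ± 0.28 at E12.5 and 12.37 ± 0.15 at E17.5. None of the 8 muscle progenitor markers had a mean over the 6 arrays under 4, but Itga7 was dim at E12.5 (2.22 ± 0.08, then 9.06 ± 0.19 at E17.5). The summed linear signal of these 8 markers was 15649 to 22340 at E12.5 and 28519 to 32636 at E17.5. Of them 3 rose, 1 fell and 4 were not called. Pecam1 and Cdh5 of endothelial cells, Ptprc of leukocytes, and Sox10 of Schwann and neural crest cells had means under 4. The sums of other lists also differed between the ages. Such a sum mostly follows its brightest genes. Examples are Col3a1 of connective tissue (12.60, then 13.97), Col9a1 of cartilage (11.77, then 7.76) and Acta2 of smooth muscle (13.77, then 13.29). The summed linear signal of 7 connective tissue markers was 5419 to 18811 at E12.5, with replicate B highest, and 16441 to 20632 at E17.5, and of these genes 2 rose, 3 fell and 2 were not called. The sum of 5 cartilage markers was 3455 to 6086 at E12.5 and 277 to 866 at E17.5 (1 gene fell), and that of 4 measured of 5 erythroid genes was 8353 to 30932 and 40 to 67 (2 fell). The 2 were the globin genes Hbb-y (14.08, then 3.67) and Hba-x (6.99, then 2.65). Alas2 (4.07, then 4.76) was not called and Klf1 was dim. The sum of 6 endothelial markers was 88 to 203 and 1113 to 1344, but Tek was the only one of them called and 4 of the 6 had means under 4. The sums of 5 pericyte and smooth muscle markers were 13747 to 16994 and 10692 to 11378 (2 rose, 2 fell), and those of 4 tenocyte markers 378 to 914 and 167 to 712 (1 rose, 1 fell). Among 5 epidermal markers 2 fell (391 to 731, then 155 to 171). Among 3 measured of 5 Schwann and neural crest markers Erbb3 fell (sums 5061 to 7813, then 807 to 1047). Sox10 and Foxd3 had means under 4, so these sums are almost those of Erbb3 alone (12.68, then 9.87). Among 4 neuronal markers Elavl4 fell (46 to 74, then 30 to 35), and among 4 leukocyte markers Cd68 rose (36 to 123, then 119 to 149). E12.5 replicate B had the highest sum of its age for connective tissue, tenocyte, cartilage, endothelial, epidermal, leukocyte and erythroid markers. It had the lowest for muscle progenitor (15649), Schwann and neural crest, and neuronal markers. The part of these markers in the Frizzled results was not tested. In sorted bulk samples fewer cells of a type cannot be told apart from less RNA of the listed genes per cell.

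**Figure D2:**
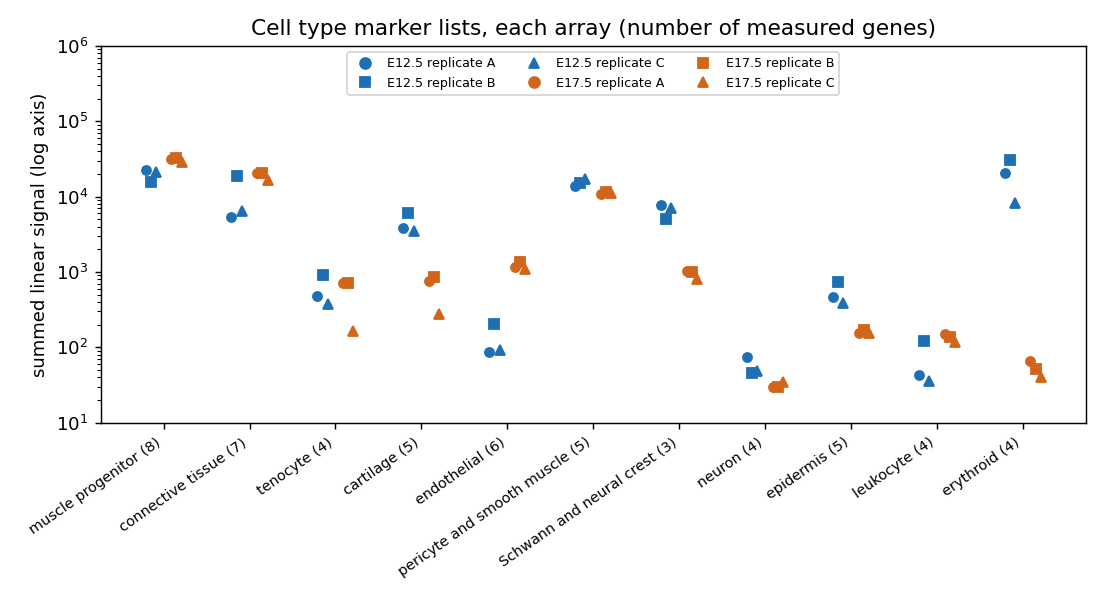
Summed linear signal of each cell type marker list on each array (log axis), with the number of measured genes in brackets, colour for age and symbol for replicate. A sum mostly follows the brightest genes of its list. Cartilage and erythroid sums are lower on all 3 E17.5 arrays. E12.5 replicate B has the highest sum of its age for connective tissue (18811) and several other lists, and the lowest for muscle progenitor markers (15649).

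In the first subfamily Fzd2, a receptor used by Wnt5a and other ligands and known for its part in limb skeletal growth, had the firmest fall. Its signal was 11.73, 11.40 and 11.37 in E12.5 A, B and C, and 9.72, 9.96 and 10.05 in E17.5 A, B and C. All 3 E12.5 arrays were higher than all 3 E17.5 arrays, by a gap of 1.32. The mean fell from 11.50 ± 0.20 to 9.91 ± 0.17 (difference -1.59, SE 0.14, limma adjusted p = 0.000669), which is 3.01-fold lower at E17.5. The other 2 Fzd2 probe sets gave differences of -1.95 and -1.94 (adjusted p = 0.00354 and adjusted p = 0.00448 over all probe sets, of which 11.3% were called, 5.59% lower and 5.75% higher). On these 2 probe sets E12.5 replicate A was the lowest of its age (10.75 and 10.11) and replicate B the highest (11.59 and 10.99). On the brightest probe set replicate A was the highest. The call held in all 18 alternative fits, with adjusted p from 3.17e-05 to 0.0077, and with A and B averaged the difference was -1.55 (adjusted p = 0.00367).

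Fzd1, a close relative of Fzd2, stood at 9.17, 9.94 and 9.34 in E12.5 A, B and C, and at 8.67, 8.65 and 8.63 at E17.5. The 3 E17.5 values were nearly equal and all lay under the E12.5 values. E12.5 replicate B was the highest, and it also had the highest sum of its age in several non-muscle marker lists and the lowest muscle progenitor sum. The mean went from 9.48 ± 0.40 to 8.65 ± 0.02 (difference -0.83, SE 0.21, limma adjusted p = 0.0371), which is 1.78-fold lower. This call is weak. It was lost without E12.5 replicate C (-0.90, adjusted p = 0.0751), without E17.5 replicate A (-0.84, adjusted p = 0.106), B (-0.83, adjusted p = 0.115) or C (-0.82, adjusted p = 0.0804), and with A and B averaged (-0.84, adjusted p = 0.109). Without E12.5 replicate B it held, at a smaller difference of -0.60 (adjusted p = 0.0394). It held in 9 of 18 alternative fits, whose adjusted p ran from 0.000588 to 0.115. The other Fzd1 probe set was dim on all arrays, and with the mean of both the difference was -0.49 and not called (adjusted p = 0.0673).

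Fzd7, the Wnt7a receptor of satellite cells, was at 9.69, 10.22 and 10.31 in E12.5 A, B and C, and at 9.55, 9.60 and 9.29 in E17.5 A, B and C. The ages did not overlap, but E12.5 A and E17.5 B were only 0.09 apart. The means were 10.07 ± 0.34 and 9.48 ± 0.17, and the difference of -0.59 (SE 0.19, 95% interval -1.05 to -0.14 before any adjustment) was not called (limma adjusted p = 0.0847). Without E12.5 replicate A, the lowest of its age, it was called (-0.78, adjusted p = 0.0131), and over 18 alternative fits the adjusted p ran from 0.00107 to 0.243. So all 3 genes of this subfamily had a negative difference, of which those of Fzd1 and Fzd2 passed the test.

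Fzd3 and Fzd6 are best known for cell polarity, in axon guidance and in the orientation of hair follicles and sensory cells. Fzd3 was at 9.75, 9.64 and 10.02 in E12.5 A, B and C, and at 8.39, 8.43 and 8.21 in E17.5 A, B and C. The lowest E12.5 array was 1.21 above the highest E17.5 array. Its mean fell from 9.80 ± 0.20 to 8.34 ± 0.12 (difference -1.46, SE 0.14, limma adjusted p = 0.000968), which is 2.75-fold lower. The call held in all 18 alternative fits (adjusted p 9.62e-06 to 0.0107), and with A and B averaged the difference was -1.49 (adjusted p = 0.00593). It shrank to -0.81 with the mean of the 6 Fzd3 probe sets, 2 of which were dim.

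The other 3 Fzd3 probe sets with a mean over 4 (4.01 in the dimmest) also had E12.5 above E17.5 on every array, with differences of -1.05, -1.10 and -1.26 (adjusted p = 0.0428, adjusted p = 0.0177 and adjusted p = 0.0319 over all probe sets). Those 3 calls were less firm than that of the brightest probe set. With A and B averaged their adjusted p was 0.143, 0.0723 and 0.0647. With 1 array left out, adjusted p ran from 0.0239 to 0.158, from 0.0286 to 0.0862 and from 0.0497 to 0.12. The first kept its call only without E12.5 replicate B, the second was lost without E12.5 C, E17.5 A or E17.5 B, and the third kept its call only without E12.5 B.

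Fzd6 was low and uneven, at 4.66, 5.87 and 4.33 in E12.5 A, B and C, and 4.32, 4.37 and 2.86 in E17.5 A, B and C. Its mean was 4.95 ± 0.81 at E12.5 and 3.85 ± 0.86 at E17.5, the latter in the dim range. Replicate B stood highest at E12.5, as it did in the sums of several non-muscle marker lists, replicate C stood lowest at E17.5, and the ages overlapped by 0.04. The difference of -1.10 (SE 0.55, 95% interval -2.41 to 0.21) was not called (limma adjusted p = 0.26), nor in any of 17 alternative fits (adjusted p 0.0978 to 0.683). The array choice alone moved it from -0.61 without E17.5 replicate C to -1.42 without E12.5 replicate C, and the other 2 Fzd6 probe sets were dim.

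Fzd5 and Fzd8 are close relatives that can signal through beta-catenin. Fzd5, needed for blood vessel formation in the yolk sac and for Paneth cell maturation in the gut, was the 1 member that rose. It was at 5.60, 5.09 and 4.73 in E12.5 A, B and C, and at 6.69, 6.49 and 7.40 in E17.5 A, B and C. All E17.5 arrays were above all E12.5 arrays, by at least 0.89, and replicate C was the highest at E17.5 although it was the lowest at E12.5. The mean rose from 5.14 ± 0.44 to 6.86 ± 0.48 (difference 1.72, SE 0.35, limma adjusted p = 0.0183). The call was lost without E12.5 replicate B (1.70, adjusted p = 0.0531), without E12.5 replicate C (1.51, adjusted p = 0.0588) and without E17.5 replicate A (1.80, adjusted p = 0.0547). It was kept with A and B averaged (1.85, adjusted p = 0.0458), and 14 of 18 alternative fits called it (adjusted p 0.000243 to 0.063). Over all probe sets the call (limma adjusted p = 0.0263) was lost with A and B averaged (adjusted p = 0.0687). There it held in 2 of 6 fits without 1 array (adjusted p 0.0236 to 0.0814). The other Fzd5 probe set was dim on every array, at 2.21 to 2.24, and with the mean of both the difference was 0.86.

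For Fzd8 the 2 probe sets did not show the same thing. The brighter one was at 8.87, 9.08 and 9.55 in E12.5 A, B and C, and at 8.73, 8.91 and 8.46 in E17.5 A, B and C. These ages overlapped, and the difference of -0.47 (SE 0.21, 95% interval -0.97 to 0.04) was not called (limma adjusted p = 0.215). The other was at 8.04, 7.49 and 7.99 in E12.5 A, B and C, and at 6.27, 6.13 and 5.83 in E17.5 A, B and C, with a gap of 1.22 between the ages. There the mean fell from 7.84 ± 0.30 to 6.08 ± 0.22 (difference -1.76, SE 0.23, adjusted p = 0.00514 over all probe sets), 3.39-fold lower, and this call held without each array in turn (adjusted p 0.008 to 0.029) and with A and B averaged (adjusted p = 0.0235). Both differences were negative, but their sizes differed, and the sources used here do not give the part of the transcript that each probe set reads.

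Fzd4, the receptor of the retinal vessel factor Norrin as well as of Wnt proteins, was at 10.40, 10.43 and 11.14 in E12.5 A, B and C, and at 11.83, 11.88 and 10.91 in E17.5 A, B and C. E17.5 replicate C fell below E12.5 replicate C, so the ages overlapped. The difference of 0.88 (SE 0.32, 95% interval 0.13 to 1.64 before any adjustment) was not called (limma adjusted p = 0.118). It was called without E17.5 replicate C (1.20, adjusted p = 0.0276), and over 18 alternative fits the adjusted p ran from 0.00449 to 0.315. A second Fzd4 probe set put the arrays in another order, at 9.88, 9.81 and 10.29 at E12.5 and 10.63, 10.49 and 10.98 at E17.5, with replicate C highest at both ages. On it the ages did not overlap and the difference was 0.71 (SE 0.19, adjusted p = 0.064 over all probe sets), which was not called either.

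Fzd9 lay between 3.21 and 3.28 and Fzd10 between 2.57 and 2.76 on the 6 arrays, with differences of 0.0033 (SE 0.06) and -0.04 (SE 0.06). Both stayed in the dim range and no change could be read from them at this signal. In all, 11 of the 26 Frizzled probe sets had a mean under 4. Their values ran from 1.93 to 3.28 and no difference among them was over 0.14 in size, so dim probe sets pull a mean over probe sets towards 0. Over all probe sets 8 Frizzled probe sets were called lower and 1 higher, on Fzd2, Fzd3, Fzd8 and Fzd5. The brightest Fzd1 probe set missed the threshold in that larger family of tests (adjusted p = 0.056).

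**Figure D3:**
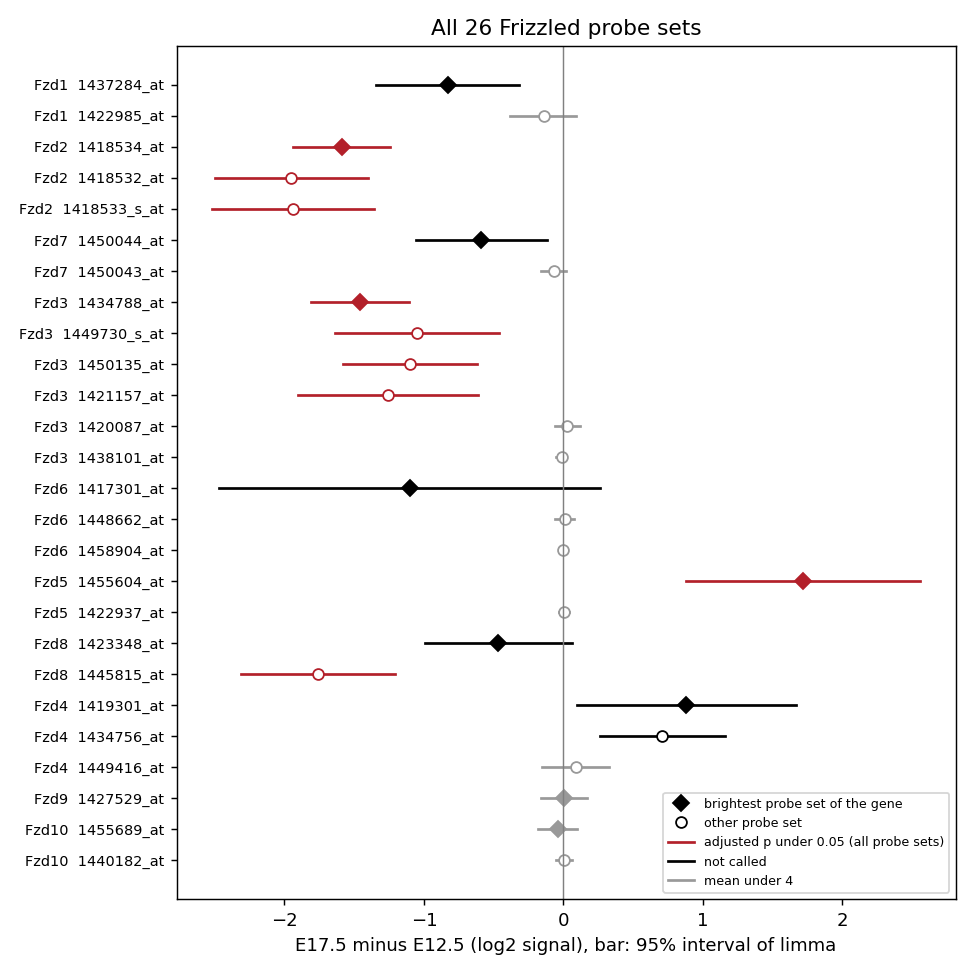
Difference E17.5 minus E12.5 (log2 signal) with its 95% interval for all 26 Frizzled probe sets, with diamonds for the brightest probe set of a gene, red for calls over all probe sets and grey for a mean under 4. All 3 Fzd2 probe sets and 4 of 6 Fzd3 probe sets lie to the left of 0, the 2 Fzd8 probe sets are apart (-0.47 and -1.76), and the dim ones cluster at 0.

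Promoter sequence was available from RefSeq (GRCm38.p6) for 6 of the 10 genes, and the 250 bases before the annotated start are shown for Fzd1 and Fzd5, the called members that have an entry, 1 in each direction. Capitals mark matches on either strand to CANNTG, the general E-box letters, and to CTTTGA or CTTTGT, core letters of TCF/LEF sites. No 2 marked matches overlap in these windows. The Fzd1 window is chr5:4758217-4758466 and the Fzd5 window chr1:64737751-64738000, both on the minus strand and printed 5′ to 3′ towards the start.
Fzd1: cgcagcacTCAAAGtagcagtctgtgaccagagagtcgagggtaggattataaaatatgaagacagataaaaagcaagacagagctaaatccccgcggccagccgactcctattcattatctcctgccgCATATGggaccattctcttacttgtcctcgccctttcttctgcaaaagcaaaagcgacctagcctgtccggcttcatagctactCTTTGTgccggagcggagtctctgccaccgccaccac
Fzd5: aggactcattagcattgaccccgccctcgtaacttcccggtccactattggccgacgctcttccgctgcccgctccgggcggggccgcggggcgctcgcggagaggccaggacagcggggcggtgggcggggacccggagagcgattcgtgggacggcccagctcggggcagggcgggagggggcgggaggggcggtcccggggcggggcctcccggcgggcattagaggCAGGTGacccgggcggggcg
The Fzd1 window held 1 match to CTTTGA and 1 to CTTTGT, whose first bases lie 242 and 37 bases before the start, and 1 to CANNTG at 121 bases. The Fzd5 window held 1 match to CANNTG, at 20 bases, and no match to the TCF/LEF letters. Among 32851 windows of the same length, 13.8% held CTTTGA, 16.5% CTTTGT and 66.2% CANNTG. Of the other 4 genes, Fzd7 held 1 CTTTGT, and Fzd9 and Fzd10 held 1 CANNTG each. The windows also differed in base composition, with 12 CG dinucleotides and 51.2% G and C in Fzd1 against 32 and 76.4% in Fzd5. A match is a description of letters and no evidence of binding.

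The genes that work with Frizzled receptors were read from 8 lists with 80 entries, of which 77 were measured and 3 (Prickle3, Prickle4 and Tcf7) were not analysed here. Of the 77, 6 rose, 14 fell and 57 were not called, and 35 had a mean under 4. Of all 18182 genes 8.21% were called higher and 8.73% lower, and the counts of each list below are to be read beside these shares. Without 1 array, 3 to 8 rose and 9 to 16 fell, the fewest rises coming without E17.5 replicate A and the fewest falls without E17.5 replicate B. In those fits 970 to 1553 of all genes were called higher and 771 to 1776 lower. With A and B averaged 4 rose and 11 fell, where 5.62% of all genes were called higher and 4.54% lower. The median difference was -0.0033.

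Among the 10 co-receptors 3 rose, 2 fell and 5 were not called, with a median of 0.30. Tspan12, the tetraspanin that works with Fzd4 in Norrin signalling, rose from 8.69 ± 0.53 to 10.72 ± 0.20 (difference 2.03, SE 0.27, limma adjusted p = 0.00332). Adgra2, which with Reck presents Wnt7 proteins to Frizzled receptors in brain vessels, rose by 2.08 (adjusted p = 0.00566), and Reck itself fell by 0.53 (adjusted p = 0.0473). The Reck call held in 5 of 18 alternative fits (adjusted p 0.0118 to 0.151), and among the fits without 1 array it held only without E12.5 replicate C. Musk, the synaptic kinase with a Frizzled-like domain, rose by 1.39 (adjusted p = 0.0128; 0.057 without E17.5 replicate A). The Wnt5a co-receptor gene Ror2 fell by 1.55 (adjusted p = 0.0123, and 0.0513 without E17.5 replicate B). Its highest E12.5 array was replicate B (8.74). Lrp6 was at 9.49 ± 0.26 and 9.88 ± 0.61 and not called (0.39, adjusted p = 0.544). Without E17.5 replicate C it was called (0.73, adjusted p = 0.0492). Another Lrp6 probe set gave -0.21 (adjusted p = 0.919 over all probe sets), and averaging the Lrp6 probe sets gave 0.09 (adjusted p = 0.947). Lrp5 was dim on all arrays.

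Regulators of receptor level and secreted antagonists were mostly not called. Of 9 genes of the R-spondin, Lgr and Znrf3 system, which sets how much Frizzled stays at the membrane, 2 fell (Lgr5 and Rspo3) and 7 were not called, 5 with a mean under 4. Rspo3 fell by 3.22 (limma adjusted p = 0.00539) and Lgr5 fell by 4.39 (adjusted p = 0.0034). Averaging each gene's probe sets gave -1.61 for Rspo3 and -2.20 for Lgr5, both still called (adjusted p = 0.00534 and adjusted p = 0.0044). Of 5 secreted Frizzled-related proteins, decoys that carry a Frizzled-like binding domain, Sfrp1 fell by 3.44 (adjusted p = 0.00218; -1.65 and adjusted p = 0.0024 when its probe sets were averaged) and Frzb fell by 3.38 (adjusted p = 0.0149; 0.0514 without E17.5 replicate B). With values under 4 raised to 4 the Frzb difference was -1.72 and not called (adjusted p = 0.257), its E17.5 arrays lying at 2.25 to 2.38. Sfrp2 rose by 1.82 (adjusted p = 0.0323), a call lost when replicate A or C of E12.5, or replicate A or B of E17.5, was left out, with A and B averaged (adjusted p = 0.0981) and with values under 4 raised to 4 (adjusted p = 0.0861). Of 8 other secreted antagonists Dkk3 rose by 1.40 (adjusted p = 0.0208), a call lost without any 1 of the E17.5 arrays (adjusted p up to 0.0746) and with A and B averaged (adjusted p = 0.0721), and its other probe set with a mean over 4 was not called (0.60, adjusted p = 0.259 over all probe sets).

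Of the 20 Frizzled ligands, 17 had a mean under 4, 1 was lower and 19 were not called. The lower one was Wnt5a, which fell by 3.91 (limma adjusted p = 0.00239), and its other 2 probe sets with a mean over 4 gave -2.95 (adjusted p = 0.055 over all probe sets) and -3.33 (adjusted p = 0.018). The Fzd7 ligand gene Wnt7a was dim at both ages, at 3.38 ± 0.16 and 3.50 ± 0.18. At E12.5 replicate B was the highest array for Wnt5a (10.06), Rspo3 (8.04) and Frzb (7.12), and replicate C for Lgr5 (9.82). The 7 connective tissue markers moved in both directions beside the falls of Wnt5a, Rspo3, Lgr5 and Frzb. Pdgfra (-3.68), Prrx1 (-1.95) and Twist2 (-3.21) fell, Col1a1 (2.76) and Dpt (9.04) rose, and Osr1 (-2.54) and Col3a1 (1.36) were not called, and their part in these falls was not tested.

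Inside the cell, Dishevelled relays the signal of every Frizzled. Dvl1 was at 11.12 ± 0.44 and 12.01 ± 0.39 and not called (0.89, limma adjusted p = 0.0759; 1.10 and adjusted p = 0.0483 without E17.5 replicate C). Dvl2 was not called (-0.51, adjusted p = 0.191; -0.74 and adjusted p = 0.021 without E12.5 replicate A), and Dvl3 was dim. Of 11 genes in this list 1 rose, 3 fell and 7 were not called. The Dishevelled-binding formin gene Daam1 rose by 0.95 (adjusted p = 0.0126), but averaging its probe sets gave 0.73, which was not called (adjusted p = 0.0951). Its paralogue Daam2 fell by 2.69 (adjusted p = 0.00287), but this value comes from a probe set of the kind shared by several transcripts, and without that kind the difference was -0.57 (adjusted p = 0.0954). Raising values under 4 to 4 gave -1.62 for Daam2 (adjusted p = 0.0491). The Dishevelled inhibitor gene Nkd2 fell by 3.62 (adjusted p = 0.000355; -2.26 and adjusted p = 0.000487 when its probe sets were averaged), and Dact1 fell by 0.83 (adjusted p = 0.0106; 0.0527 with A and B averaged, and 0.0541 at most without E17.5 replicate A or B).

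Of 10 measured polarity partners 2 fell and 8 were not called. Vangl2, the transmembrane partner of Frizzled in planar cell polarity, was at 9.51, 9.51 and 10.11 in E12.5 A, B and C, and at 8.41, 8.37 and 8.17 in E17.5 A, B and C. The ages did not overlap, and the difference was -1.39 (SE 0.19, limma adjusted p = 0.00415), held in all 18 alternative fits (adjusted p 4.66e-05 to 0.0211). A second Vangl2 probe set also fell (-2.34, adjusted p = 0.00841 over all probe sets), and another near the dim range was not called (-0.10, adjusted p = 0.947). Celsr1, called at -0.35 (adjusted p = 0.0252), was dim at both ages, and the call was lost with A and B averaged (adjusted p = 0.0977). Of 4 measured beta-catenin targets, Axin2 fell by 2.43 (adjusted p = 0.00392) and Lef1 fell by 2.95 (adjusted p = 0.00326), and the other 2 were not called. E12.5 replicate B was the highest array for Axin2 (8.94) and Lef1 (6.80). The Lef1 arrays at E17.5 were dim, at 2.70 to 3.25, and with values under 4 raised to 4 its difference was -1.96 (adjusted p = 0.0361). Averaging probe sets gave -1.74 for Lef1 (adjusted p = 0.0253) and -1.32 for Axin2 (adjusted p = 0.00548), both still called.

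**Figure D4:**
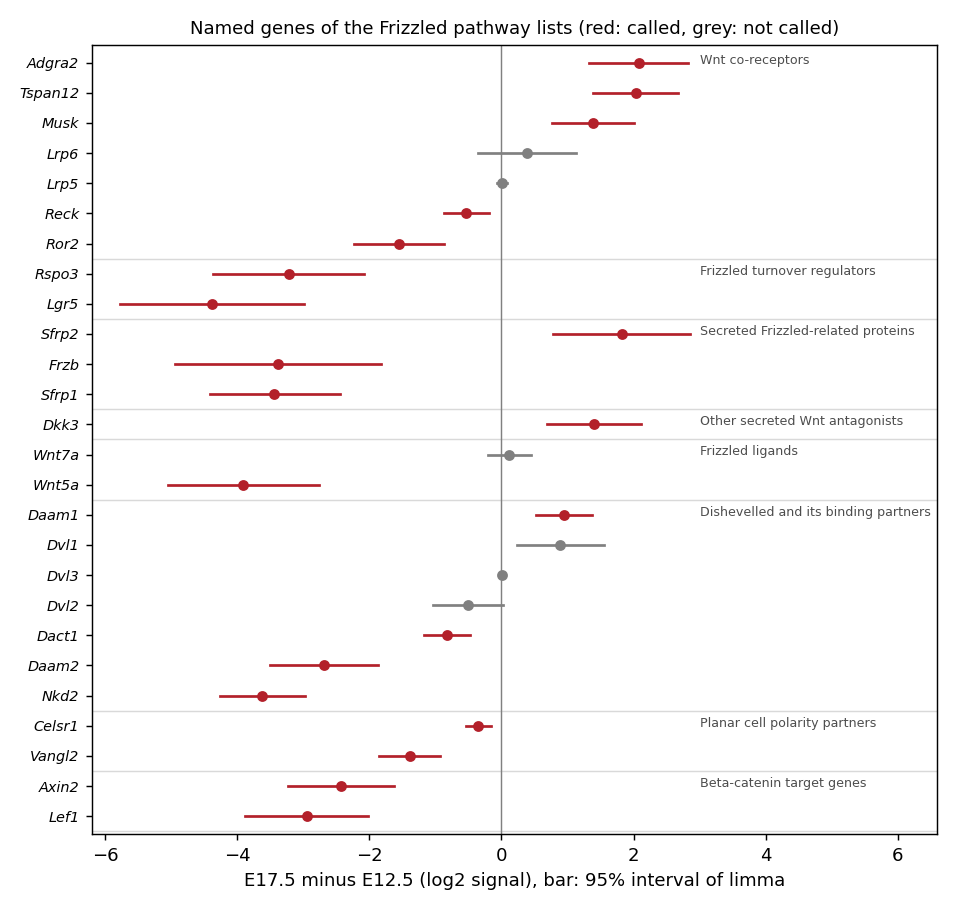
Difference E17.5 minus E12.5 (log2 signal) with its 95% interval for the named genes of the 8 Frizzled pathway lists, in red where called and grey where not. Tspan12 and Adgra2 lie to the right of 0 near 2, while Vangl2, Axin2, Lef1 and Wnt5a lie to the left.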

How the data were processed

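Affymetrix arrays with 1 colour measured RNA of the sorted limb cells, 3 arrays per age. Per the labels' protocols RNA was amplified from the 3' end before biotin labelling. Each deposited value is the log2 signal of a probe set, which the authors obtained with GCRMA per the submitters' processing notes. Its version is not given in the sources used here. The method models background from probe sequences, equalises the arrays and combines the probes of a set, so differences against the dim range depend on its background model.

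Probe sets were named from the platform annotation, with symbols updated by entrez ID to RefSeq of GRCm38.p6. Of 44994 probe sets 34909 had 1 symbol, 931 several (left out) and 9154 were unnamed. Differences were fitted with limma 3.58.1 in R 4.3.3 (eBayes with an intensity trend, no filter), with Benjamini-Hochberg adjustment over 18182 genes, or over 34909 probe sets where stated. The fit was checked on simulated data with independent arrays only, which does not cover near copies such as E17.5 A and B. Intervals are 95% from that fit. The named genes were all members, up to 4 called genes per pathway list and direction, 8 fixed pathway genes, and the 3 nearest genes to each called member. Every Frizzled probe set was fitted; second probe sets of pathway genes were looked up after their values were seen. The members and lists were chosen with earlier results of these data known. Alternatives covered variance priors, array weights, probe set choice, dim filters and floor, normalization, threshold, the replicate letter as a block, E17.5 A and B as 1 averaged sample, and leaving out each array. Planned protein sequences were not used here. Figures were drawn with matplotlib 3.10.9.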

Additional observations from a re-analysis of the deposited data

How the results depend on the processing

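The falls of Fzd2 and Fzd3 were called in all 18 alternative fits, those of Fzd1 in 9 and the rise of Fzd5 in 14. Of 185 values of the 10 genes under the alternatives, 158 kept direction and side of the threshold, 15 lost a call, 7 gained one and 5 changed sign. The count of Frizzled genes higher was 2 with array weights and 0 at a threshold of 0.01, and the count lower was 6 with array weights, a fit that called 46.3% of all genes and weighted replicate A of E17.5 by 4.98, B by 3.24 and C by 0.14. Without 1 array, 0 to 2 were higher and 2 to 4 lower. With the replicate letter as a block (replicate block) 0 were higher and 2 lower, and in limma's blocked fit 1 was higher and 5 lower at an unadjusted p under 0.05. At the threshold of 0.01 the limma fit had 2 higher and 4 lower at that unadjusted p. When E12.5 B, E12.5 C or E17.5 A was left out the count higher was 0, with 1 to 2 at the unadjusted p. The letters are not stated to pair the arrays. Same-letter deviations from the age means correlated at -0.380, 0.255 and -0.070 (A, B, C). These values cannot decide on a pairing, since A and B of E17.5 are near copies. Pathway genes higher numbered 12 with array weights and 2 at 0.01, against 6, and those lower 24 with array weights, 9 at 0.01 and 9 over genes whose mean was 6 or more, against 14. Without 1 array they numbered 3 to 8 and 9 to 16. The cause was not tested, except that the mean filter tests fewer genes.

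Signs changed only in genes that were dim and not called. With array weights Fzd9 was at -0.04, Dvl3 at -0.01, Lrp5 at -0.03 and Wnt7a at -0.06. With centring on bright genes Fzd9, Dvl3 and Lrp5 were at -0.01. Without 1 array Fzd9 ran from -0.02 to 0.02, Dvl3 from -0.0033 to 0.01 and Lrp5 from -0.01 to 0.01. All genes called numbered 1493 higher and 1587 lower. They numbered 3204 and 5220 with array weights, 841 and 701 at 0.01, 1091 and 1014 with the block, and 825 lower with A and B averaged. Without 1 array they numbered 970 to 1553 and 771 to 1776.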

Other observations

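Among 8757 other genes whose mean was 6 or more, the profiles nearest to the called Frizzled genes were found by the distance between log2 values centred on each gene's own mean over 6 arrays. Nearest to Fzd2 were Shroom4 (distance 0.189, r = 0.9958), Zfp618 (0.217, r = 0.9953) and Slc25a33 (0.3, r = 0.9967), a mitochondrial nucleotide carrier gene. Nearest to Fzd3 were Zfp553 (0.221, r = 0.9947), Hic2 (0.235, r = 0.9948), which encodes a zinc finger repressor, and Exo1 (0.244, r = 0.9911), a DNA repair exonuclease gene. Nearest to Fzd1 were Phyh (0.198, r = 0.9856), Ciapin1 (0.201, r = 0.9854) and Arhgap28 (0.21, r = 0.9854). Nearest to Fzd5 were Frmd4b (0.193, r = 0.9997), the nicotinic receptor gene Chrna7 (0.362, r = 0.9899) and Cish (0.375, r = 0.9879), a feedback gene of cytokine signalling. These are descriptions over 6 arrays that share the age difference, 2 of which (A and B of E17.5) are near copies, and no test was made of them.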
